A study of Mus musculus with 24 samples.

Results

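The 10 genes described here belong to the unfolded protein response, the programme by which a cell answers an excess of unfolded protein in the endoplasmic reticulum (ER). They are listed by name from the known pathway: the rule uses no measured value, but the set was proposed with earlier results of these data known. Their Ensembl identifiers were found among the 49315 gene rows of each of 24 count tables, and all 10 passed the filter on low counts in both sexes. The tables come from RNA-seq of mouse intrahepatic cholangiocytes, the epithelial cells that line the bile ducts inside the liver.

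The sensors PERK, IRE1 and ATF6 in the ER membrane start the response. PERK, the product of Eif2ak3, phosphorylates the translation factor eIF2alpha, which slows protein synthesis and favours translation of ATF4, a transcription factor whose targets include the pro-apoptotic factor CHOP (Ddit3) and the pseudokinase Trib3. IRE1 (Ern1) splices the mRNA of Xbp1 so that it encodes an active transcription factor, and ATF6 is cut in the Golgi apparatus to release an active fragment. XBP1 and ATF6 induce ER chaperones such as BiP (Hspa5) and GRP94 (Hsp90b1), the co-chaperone ERdj4 (Dnajb9) and HERP (Herpud1), which serves the degradation of ER proteins. BiP also binds the sensors and holds them inactive. Much of this regulation acts on protein, on translation and on splicing, which counts per gene do not show: spliced and unspliced Xbp1 were not separated here.

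The promoters of Hspa5, Herpud1 and Hsp90b1 are shown because, of the 9 members with an entry in RefSeq's promoter table (GRCm38.p6), they alone held any of the 4 response motifs searched on both strands of the 250 bases before the start. The ER stress response element (CCAAT, 9 bases of any kind, then CCACG) is bound by ATF6 with NF-Y and was found in Hspa5 and Hsp90b1 and in 0.113% of all 32851 promoters of the table. Its variant ERSE-II (ATTGG, any base, then CCACG) was found in Herpud1 and in 0.0304% of the promoters. The ATF4-type element TGATGNAA was found in Herpud1 on the opposite strand and in 3.45% of the promoters, while the XBP1-type element TGACGTGG was in none of the 9 and in 0.563% of the promoters. Capitals mark the matches. In Hspa5 the match runs from 65 to 47 bases before the RefSeq start. In Hsp90b1 a match on the gene's strand runs from 212 to 194 and a match on the opposite strand from 107 to 89 bases before it. In Herpud1 ERSE-II lies 52 to 42 and the ATF4-type element 112 to 105 bases before it. The stretches are chr2:34771840-34772089 (plus strand), chr8:94386179-94386428 (plus strand) and chr10:86705445-86705694 (minus strand), each written 5′ to 3′ along its gene. The counted models of Hspa5 and Hsp90b1 begin upstream of the RefSeq start, inside these stretches.
Hspa5: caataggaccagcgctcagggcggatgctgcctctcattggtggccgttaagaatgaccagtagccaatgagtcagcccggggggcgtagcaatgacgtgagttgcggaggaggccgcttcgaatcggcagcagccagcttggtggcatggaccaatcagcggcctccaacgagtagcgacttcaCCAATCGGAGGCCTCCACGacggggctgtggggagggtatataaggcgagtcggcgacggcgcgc
Herpud1: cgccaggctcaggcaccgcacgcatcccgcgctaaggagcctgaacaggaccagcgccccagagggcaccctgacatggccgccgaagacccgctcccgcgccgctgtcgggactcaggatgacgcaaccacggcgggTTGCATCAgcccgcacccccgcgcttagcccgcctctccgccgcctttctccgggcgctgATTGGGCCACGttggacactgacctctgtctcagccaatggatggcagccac
Hsp90b1: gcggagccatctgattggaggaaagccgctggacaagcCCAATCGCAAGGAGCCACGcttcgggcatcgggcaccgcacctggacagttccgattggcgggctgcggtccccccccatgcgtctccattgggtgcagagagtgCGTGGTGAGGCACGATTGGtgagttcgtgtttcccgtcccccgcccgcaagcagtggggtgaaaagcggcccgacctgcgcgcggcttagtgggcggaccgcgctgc

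The study compared wild-type (WT) mice with dnTGFB mice, which express a dominant-negative form of the type II receptor for TGF-beta (dnTGFBRII) and are used to model primary biliary cholangitis, an autoimmune disease of the small bile ducts. As background, the transgene of this model is driven by the Cd4 promoter, so that it acts in T cells and not in bile duct cells. Mice of each genotype were left untreated or received secretin, the gut hormone that stimulates bicarbonate secretion by cholangiocytes, at 4 µg per kg body weight per day for 8 weeks from intraperitoneal osmotic minipumps. Males and females were handled separately, which gave 8 groups of 3 libraries. Untreated WT mice were killed at 32 weeks and secretin-treated mice at 40 weeks of age, and no age is given for untreated dnTGFB mice, so secretin and age cannot be told apart in WT mice. Cholangiocytes of 6 to 8 mice per group were pooled, isolated with a cholangiocyte antibody and magnetic beads, and the RNA of the pool was sequenced in triplicate. The p-values given here therefore measure the spread between libraries of a group, described as 1 pool, and not between mice. In some groups this spread went far beyond counting noise. Male WT libraries 1 and 2 differed by a chi-square of 40.0 per gene, where counting noise gives 1. Why libraries described as 1 pool differed so was not tested. Groups follow the library titles. The genotype field disagrees with the title in 12 libraries, since WT secretin libraries are listed with the transgene and untreated dnTGFB libraries as wild-type. Mouse Tgfbr2 stood at 44.1 to 71.4 CPM (counts scaled to a common library total) in male dnTGFB and at 92.0 to 157 CPM in male WT libraries, which is no check of the genotype, since the sources used here do not say whether reads of the transgene fall on this gene.

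Total counts per library ran from 1429218 in male dnTGFB library 3 to 104003184. That library also held heart muscle markers at 13587 and neuronal markers at 7250 CPM in sum, and male WT library 1 had 42.8% mitochondrial counts against about 9.7% in the other WT libraries. The nearest library by a chi-square distance was of the same group for 10 of 12 male and for 6 of 12 female libraries. In females, WT secretin libraries 2 and 3 and dnTGFB libraries 1 and 2 carried heart muscle markers at 46435 to 54558 CPM in sum, where none of the other 8 exceeded 2368 CPM. Female WT library 2 differed from dnTGFB secretin library 1 by a chi-square of 1.16 per gene, and WT secretin library 1 from dnTGFB secretin library 3 by 1.43, close to the value of 1 that counting noise gives. The labels do not settle whether libraries were exchanged between groups, so each female group may hold a library that belongs to another, and female libraries are named here as they are labelled. Xist, made from the inactive X chromosome of females, stood at 34.0 to 42.4 CPM in male WT secretin, and at most 5.74 CPM in the other male libraries. Ddx3y, on the Y chromosome, was at 46.8 to 64.3 CPM in the 4 libraries labelled female that are rich in heart muscle transcripts, and at 1.36 to 6.02 CPM in the other 8, with Xist at 12.7 to 74.7 and 37.8 to 435 CPM. Bile duct markers were detected in all groups, with all 9 of the list counted in every library except in male dnTGFB, where 8 were. Such counts do not show that a library is mostly bile duct cells. The bile duct sums were 92.4 and 213 CPM in the heart-rich female WT secretin libraries 2 and 3. Hepatocyte markers summed to more than bile duct markers in some libraries (12416 against 472 CPM in male dnTGFB library 1). In others they summed to less (4104.5 against 5755 CPM in male dnTGFB secretin library 1). Results are given with all libraries and, for the counts and the main genes that libraries standing apart touch, also without those.

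Expressed per kilobase of exon (RPKM after TMM scaling, a scaling that aligns the bulk of genes between libraries), Atf4 was the most abundant member in male WT libraries at 378 ± 33 (SD, n = 3). Hspa5 followed at 223 ± 19 RPKM and Hsp90b1 at 210 ± 9 RPKM, which did not differ beyond their spread. This order rests on dividing by the exon length of each gene. By TMM-scaled CPM, Hspa5 (mean 944) and Hsp90b1 (847) stood above Atf4 (651). Herpud1 stood at 70.0 ± 2.7 RPKM. Next came Xbp1 at 48.6 ± 1.4 and Dnajb9 at 46.2 ± 3.9 RPKM, again within their spread. Ddit3 lay at 29.9 ± 3.7 RPKM, and the sensors were low: Atf6 at 4.82 ± 0.47 and Ern1 at 2.66 ± 0.19 RPKM, with Trib3 between them at 4.09 ± 1.02 RPKM, within its spread of Atf6. In female WT libraries Atf4 (181 ± 50 RPKM), Hsp90b1 (176 ± 21 RPKM) and Hspa5 (159 ± 23 RPKM) overlapped, as did the lowest pair, Ern1 (2.61 ± 0.29 RPKM) and Trib3 (3.02 ± 0.38 RPKM).

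In male libraries the clearest pattern was that of Atf4. Its level was lower in secretin-treated than in untreated WT libraries and higher in secretin-treated than in untreated dnTGFB libraries, and the difference between these secretin effects passed the test. Trib3 was lower in untreated dnTGFB than in WT, and Xbp1 and Atf4 were higher in dnTGFB with secretin than without. The chaperones Hspa5 and Hsp90b1 had their highest levels in WT with secretin. All levels of members and other pathway genes from here on are TMM-scaled CPM, and the values of each group are listed for libraries 1, 2 and 3. Cell type markers, singly and in sum, stay in CPM of library totals.

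**Figure D1:**
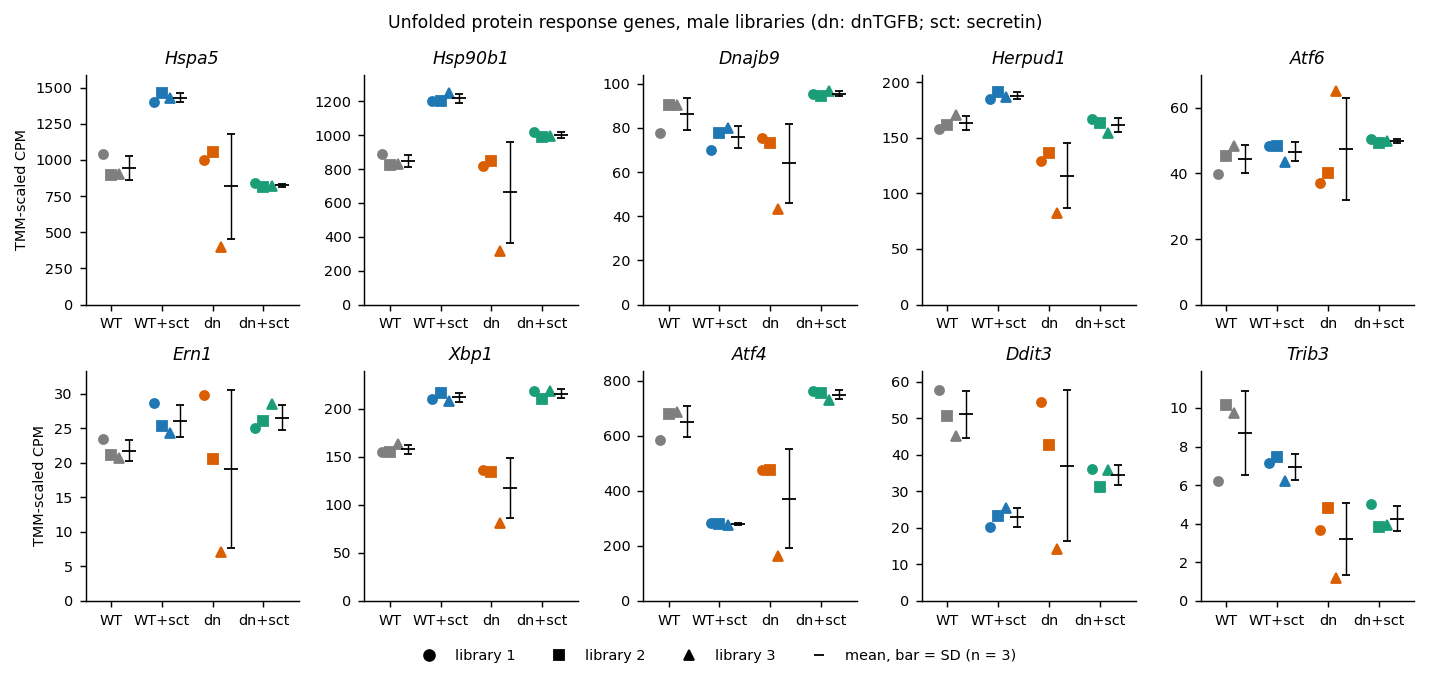
TMM-scaled CPM of the 10 genes in the 12 male libraries, with 1 point per library, a horizontal mark at the group mean and a bar of 1 SD (n = 3). Atf4 spans 275 to 285 CPM in WT with secretin and 732 to 763 CPM in dnTGFB with secretin, and dnTGFB library 3 (triangle) is the lowest male library for every gene but Atf6.

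The abundant chaperones came first. Hspa5 (ENSMUSG00000026864, chr2:34771970-34777547, plus strand), which encodes BiP, the main Hsp70 chaperone of the ER, stood at 1038, 893 and 900.2 CPM in male WT, at 1402, 1461 and 1426 CPM in WT secretin, at 998, 1055 and 398 CPM in dnTGFB, and at 837, 813 and 822 CPM in dnTGFB secretin. All WT secretin libraries lay above all WT libraries, whereas the low dnTGFB library 3 put the secretin-treated dnTGFB libraries inside the range of the untreated ones. Hsp90b1 (ENSMUSG00000020048, chr10:86690209-86705509, minus strand), which encodes GRP94, the Hsp90 of the ER, stood at 888, 822 and 832 CPM in WT, at 1202, 1205 and 1248 CPM in WT secretin, at 821, 849 and 318 CPM in dnTGFB, and at 1019, 989 and 993 CPM in dnTGFB secretin. Both secretin groups were above their untreated groups with no overlap. Dnajb9 (ENSMUSG00000014905, chr12:44205897-44210068, minus strand), the co-chaperone ERdj4 and a classical XBP1 target, stood at 77.7, 90.2 and 90.4 CPM in WT, at 70.0, 77.6 and 80.0 CPM in WT secretin, at 75.4, 73.0 and 43.5 CPM in dnTGFB, and at 95.5, 94.5 and 96.5 CPM in dnTGFB secretin. Here the dnTGFB secretin libraries were the highest of all male libraries, and WT secretin overlapped WT.

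Herpud1 (ENSMUSG00000031770, chr8:94386438-94395377, plus strand), an ER membrane protein of the degradation machinery, stood at 158, 162 and 170.3 CPM in male WT, at 185, 192 and 187 CPM in WT secretin, at 129, 136 and 82.2 CPM in dnTGFB, and at 167, 163 and 154 CPM in dnTGFB secretin. Untreated dnTGFB libraries were below all others. The sensor gene Atf6 (ENSMUSG00000026663, chr1:170704674-170867771, minus strand) stood at 39.7, 45.4 and 48.3 CPM in WT, at 48.3, 48.3 and 43.4 CPM in WT secretin, at 37.0, 40.0 and 65.2 CPM in dnTGFB, and at 50.4, 49.3 and 49.8 CPM in dnTGFB secretin. It was the only member whose highest male value lay in dnTGFB library 3, and its groups overlapped in each of the 3 comparisons. Ern1 (ENSMUSG00000020715, chr11:106394650-106487852, minus strand), which encodes IRE1, stood at 23.5, 21.1 and 20.6 CPM in WT, at 28.6, 25.3 and 24.3 CPM in WT secretin, at 29.8, 20.5 and 7.05 CPM in dnTGFB, and at 25.0, 26.0 and 28.5 CPM in dnTGFB secretin. The 3 untreated dnTGFB libraries of Ern1 held both the highest and the lowest value of all male libraries.

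Among the transcription factors, Xbp1 (ENSMUSG00000020484, chr11:5520659-5525893, plus strand) stood at 155, 155 and 163 CPM in male WT, at 210.4, 217 and 208 CPM in WT secretin, at 136, 135 and 81.0 CPM in dnTGFB, and at 219, 209.9 and 219 CPM in dnTGFB secretin. Both secretin groups lay near a common level above both untreated groups. Atf4 (ENSMUSG00000042406, chr15:80255184-80257540, plus strand) stood at 587, 678 and 689 CPM in WT, at 285, 279 and 275 CPM in WT secretin, at 477, 475 and 165 CPM in dnTGFB, and at 763, 755 and 732 CPM in dnTGFB secretin. No male group of Atf4 overlapped another except WT secretin and dnTGFB, where library 3 of dnTGFB lay below all WT secretin libraries. Ddit3 (ENSMUSG00000025408, chr10:127290774-127296288, plus strand), which encodes CHOP, stood at 57.8, 50.5 and 45.1 CPM in WT, at 20.2, 23.3 and 25.4 CPM in WT secretin, at 54.4, 42.8 and 14.1 CPM in dnTGFB, and at 36.3, 31.2 and 35.9 CPM in dnTGFB secretin. All WT secretin libraries were below all WT libraries. Ddit3 shares 68 of its 1713 exon bases with Mars on the opposite strand, and the sources used here do not say whether counting used strand, so reads in that stretch cannot be assigned. Hsp90b1 likewise shares 415 of 4032 exon bases with the pseudogene 1810014B01Rik on the opposite strand.

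Trib3 (ENSMUSG00000032715, chr2:152337422-152344032, minus strand), an ATF4 and CHOP target that feeds back on ATF4, was the rarest member by CPM. It stood at 6.19, 10.1 and 9.75 CPM in male WT, at 7.14, 7.46 and 6.19 CPM in WT secretin, at 3.69, 4.82 and 1.18 CPM in dnTGFB, and at 5.01, 3.83 and 3.95 CPM in dnTGFB secretin. All untreated dnTGFB libraries were below all WT libraries, while secretin-treated and untreated libraries of the same genotype overlapped.

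The comparison of untreated male dnTGFB with WT asks how the disease model differs from control. Trib3 fell 2.39-fold (log2 fold change -1.26 ± 0.34 SE, adjusted p = 0.0301, quasi-likelihood F test of edgeR, adjusted by Benjamini-Hochberg over all genes). It was the 1 member of 10 called at an adjusted p under 0.05, where 17% of the 18777 genes tested were called, 8.55% higher and 8.46% lower. The other members gave log2 fold changes from -0.80 (Atf4, SE 0.33, adjusted p = 0.113) to 0.07 (Atf6, SE 0.19, adjusted p = 0.839). The median over the 10 was -0.41, against 0.01 over all genes tested. For 5 members (Dnajb9, Herpud1, Xbp1, Atf4 and Trib3) all dnTGFB libraries were below all WT libraries, and 32.7% of all genes had groups that did not overlap in either direction.

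These values depend on dnTGFB library 3 and WT library 1. Without both, 7 of 10 members were called (1 higher, 6 lower), where 47.4% of all genes were. WT library 1 was nearer to dnTGFB library 2 (chi-square 7.30 per gene) than to any of its own group (40.0), and the libraries that remain hold 55.0 to 55.1% mitochondrial counts in dnTGFB against 9.73 to 9.76% in WT. Trib3 then stood at -1.22 on the log2 scale (adjusted p = 1.74e-04), Atf4 at -0.53 (adjusted p = 9.98e-12) and Herpud1 at -0.33 (adjusted p = 2.76e-05). Hspa5 turned from -0.21 to 0.19 (adjusted p = 2.20e-05) and Atf6 from 0.07 to -0.28 (adjusted p = 0.0103). The call of Trib3 was lost without WT library 2 (adjusted p = 0.107), without WT library 3 (adjusted p = 0.103) and without dnTGFB library 1 (adjusted p = 0.0549), under the replicate block (adjusted p = 0.0503) and in a fit of the 6 libraries compared alone (adjusted p = 0.266), where no member and no gene was called (1 and 2860 at an unadjusted p under 0.05, edgeR). Scaled by library totals in place of TMM, 8 members were lower and none higher, and the calls over all genes moved from 1606 higher and 1589 lower to 1011 higher and 4212 lower. In bulk RNA, fewer cells of a type and less RNA per cell cannot be told apart: the summed bile duct markers lay at 472 to 679 CPM in dnTGFB and 1304 to 3347 CPM in WT, and their part in these differences was not tested.

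The comparison of male WT mice with and without secretin asks what the hormone does in healthy bile ducts. The 2 groups also differ in age, which cannot be told apart from secretin. Xist stood at 34.0 to 42.4 CPM with secretin and at 0.629 to 1.64 CPM without, and what this means for the members was not tested. None of the 10 members was called by edgeR, where 6.22% of all genes were (3.55% higher and 2.67% lower). Of the 10 members 3 had an unadjusted p under 0.05 (edgeR), as did 3912 of the 18777 genes tested. DESeq2 called 3 members and 3118 of the 18777 genes. The largest differences were those of Atf4 (log2 fold change -1.22 ± 0.33, 2.33-fold lower, adjusted p = 0.0534) and its target Ddit3 (-1.16 ± 0.33, 2.23-fold lower, adjusted p = 0.0653), each with all 3 secretin libraries below all 3 untreated ones. Hspa5 (0.60 ± 0.31, adjusted p = 0.31), Hsp90b1 (0.52 ± 0.31, adjusted p = 0.379) and Xbp1 (0.42 ± 0.19, adjusted p = 0.235) had positive values. The median over the members was 0.14, against 0.00 over all genes. Groups did not overlap for 7 members, of which 5 were higher and 2 lower with secretin, and for 43.4% of all genes.

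The SEs of this comparison come from a spread shared with the other male groups, among them the scattered dnTGFB libraries. Without WT library 1 and dnTGFB library 3, 9 of 10 members were called, 5 higher and 4 lower, where 40.5% of all genes were. Atf4 then stood at -1.29 (adjusted p = 2.96e-20), Ddit3 at -1.06 (adjusted p = 1.53e-08), Hspa5 at 0.67 (adjusted p = 3.43e-15), Hsp90b1 at 0.56 (adjusted p = 6.24e-14) and Xbp1 at 0.41 (adjusted p = 5.46e-08). Fitted on the 6 libraries compared alone, 6 of 10 members were called, 4 higher and 2 lower, where 4928 of 17416 genes were. Pancreatic acinar markers summed to 174 to 179 CPM with secretin and to 37.1 to 69.4 CPM without, with all 8 of the list counted in every library of both groups. Most of the sum without secretin was Ctrb1, at 25.9 to 65.7 CPM, against 61.3 to 62.9 CPM with it. Each of the other acinar markers reached at most 3.11 CPM without secretin and stood at 10.5 to 26.1 CPM with it. Hepatocyte markers summed to 14442 to 15177 against 2949 to 9182 CPM, all 10 counted. The part of either cell type in the levels of chaperone genes was not tested.

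The comparison of male dnTGFB mice with and without secretin asks what the hormone does in the disease model; it shares its untreated group with the comparison against WT. Xbp1 rose 1.83-fold (log2 fold change 0.88 ± 0.19, adjusted p = 0.0135) and Atf4 rose 2.01-fold (1.01 ± 0.33, adjusted p = 0.0484), all 3 treated libraries above all 3 untreated ones in both genes. These 2 of 10 members were called, where 22.6% of all genes were called, 10.1% higher and 12.4% lower. Dnajb9 (0.56 ± 0.19, adjusted p = 0.0526), Herpud1 (0.47 ± 0.19, adjusted p = 0.0864) and Hsp90b1 (0.59 ± 0.31, adjusted p = 0.186) did not pass, while Hspa5 was at 0.01 ± 0.31 (adjusted p = 0.985) and Ddit3 at -0.16 ± 0.33 (adjusted p = 0.762). The members' median was 0.43, against -0.05 over all genes. Groups did not overlap for 5 members, all of them higher with secretin, and for 41.1% of all genes.

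Without dnTGFB library 3 and WT library 1, 8 members were called (6 higher, 2 lower), where 46.6% of all genes were. Xbp1 stood at 0.68 (adjusted p = 1.70e-11) and Atf4 at 0.66 (adjusted p = 3.43e-14) in that fit. Hspa5 turned to -0.31 (adjusted p = 3.65e-09), and Ddit3 stood at -0.49 (adjusted p = 8.48e-04), so that the chaperone gene and the CHOP gene were lower while Hsp90b1 (0.27, adjusted p = 4.03e-08), Dnajb9 (0.37, adjusted p = 5.11e-05) and Herpud1 (0.29, adjusted p = 5.51e-05) were higher. With 1 library left out of the 12, the calls also depended on the treated group: leaving out any secretin-treated dnTGFB library moved the adjusted p of Xbp1 to between 0.0514 and 0.0566 and that of Atf4 to between 0.112 and 0.121. Fitted on the 6 libraries compared alone, no member was called (Xbp1 adjusted p = 0.138, Atf4 adjusted p = 0.242, edgeR), where 506 genes were, and under the replicate block Xbp1 was called (adjusted p = 0.0286) and Atf4 was not (adjusted p = 0.0647). Scaled by library totals, 9 members were higher and none lower, among them Ddit3 (0.81, adjusted p = 0.0271), and the calls over all genes moved from 1900 higher and 2337 lower to 6689 higher and 837 lower. Plasma cells, which secrete antibody, express Xbp1 strongly. The 6 plasma cell markers summed to 586 to 601 CPM in dnTGFB secretin and 81.9 to 101 CPM in dnTGFB (6 and 5 of the 6 counted in every library, none at 0 throughout). The same sums were 370 to 382 CPM in WT secretin and 193 to 391 CPM in WT. Jchain made up most of the sum in dnTGFB secretin (411 to 418 CPM), where Tnfrsf17 reached at most 0.791 CPM. Against the WT groups not every marker followed the sum. Irf4 stood at 7.03 to 7.33 CPM in dnTGFB secretin, at 10.6 to 20.1 CPM in WT and at 13.9 to 19.2 CPM in WT secretin. Sdc1 was also lower in dnTGFB secretin than in WT secretin. Bile duct markers summed to 5670 to 5755 CPM in dnTGFB secretin against 472 to 679 CPM in dnTGFB, and mitochondrial counts made up 5.31 to 5.66% against 11.4 to 55.1%. The part of these differences in the levels of Xbp1 and Atf4 was not tested.

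The interaction asks whether secretin acted differently in the 2 genotypes, and it uses all 4 male groups of the comparisons above. Treated and untreated WT mice differed in age, and no age is given for untreated dnTGFB mice. Age therefore cannot be told apart from secretin in the interaction either. The WT secretin libraries with raw Xist counts above those of the other male groups enter it too. Atf4 was the 1 member called, where 15.6% of all genes were (8.1% higher and 7.51% lower). Its secretin effect was 2.23 ± 0.47 log2 units higher in dnTGFB than in WT (adjusted p = 0.0121). The next members were Ddit3 (1.00 ± 0.47, adjusted p = 0.155) and Dnajb9 (0.75 ± 0.27, adjusted p = 0.0762), and the lowest was Hspa5 (-0.59 ± 0.44, adjusted p = 0.369). The members' median was 0.36, against -0.07 over all genes. Leaving out each male library in turn gave Atf4 differences from 1.89 to 2.46 and adjusted p from 2.00e-09 to 0.0411. Without WT library 1 and dnTGFB library 3, 7 of 10 members were called (5 higher, 2 lower), where 48.9% of all genes were. Atf4 stood there at 1.95 (adjusted p = 9.60e-21), Dnajb9 at 0.62 (adjusted p = 3.00e-06) and Ddit3 at 0.58 (adjusted p = 0.00317), while Hspa5 was at -0.98 (adjusted p = 9.77e-16) and Hsp90b1 turned from 0.07 to -0.29 (adjusted p = 1.29e-06).

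**Figure D2:**
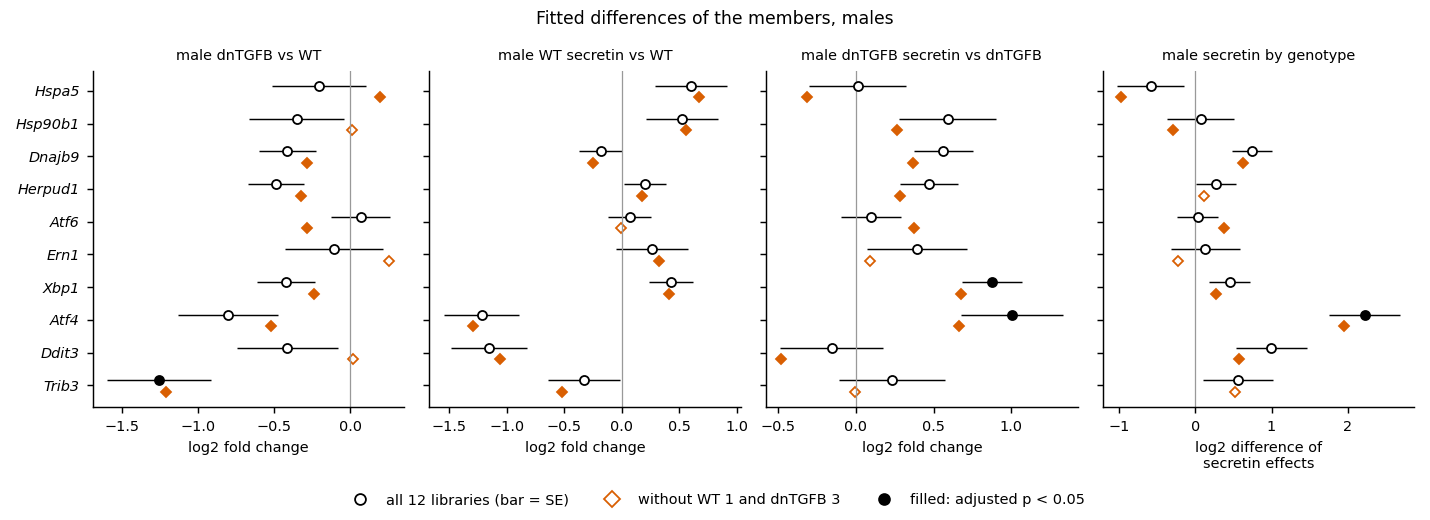
Log2 fold changes of the 10 genes in the 3 male comparisons and the interaction. Circles with bars of 1 SE use all 12 libraries, diamonds leave out WT library 1 and dnTGFB library 3, and filled symbols have an adjusted p under 0.05. The interaction of Atf4 is filled in both fits, at 2.23 and 1.95, while Hspa5 is on opposite sides of 0 in the comparison of dnTGFB with WT.

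Another 52 genes of the pathway were read as 7 lists. In male dnTGFB against WT, 1 of the 52 was higher and 9 were lower (median -0.31), where 8.55% and 8.46% of all genes were. Without WT library 1 and dnTGFB library 3, 10 were higher and 23 lower (median -0.13), where 47.4% of all genes were called, and the 10 genes called with all libraries kept their calls and directions. The PERK gene Eif2ak3 fell (-1.05 ± 0.26, adjusted p = 0.0209), from 39.1, 46.0 and 42.1 CPM in WT to 25.7, 23.4 and 9.40 CPM in dnTGFB. The ATF4 partner gene Cebpg (-0.87 ± 0.20, adjusted p = 0.0149) and the ER oxidase gene Ero1b (-0.76 ± 0.22, adjusted p = 0.0366) fell as well. Asparagine synthetase, Asns, an ATF4 target, was the gene that rose (2.16 ± 0.53, adjusted p = 0.0187), from 9.90, 5.195 and 4.96 CPM in WT to 17.3, 13.3 and 64.6 CPM in dnTGFB, with library 3 far above the others. In the lists, 2 of 4 sensors and activators, 3 of 15 chaperones and folding enzymes, 1 of 8 degradation genes and 2 of 7 translocation genes were lower. Of the 15 ATF4 and CHOP targets 1 was higher and 1 lower (6 and 4 without those libraries), and neither eIF2alpha phosphatase subunit nor the single gene listed as a substrate of IRE1-dependent decay was called with all libraries. Without those libraries both phosphatase subunits and all 4 sensors and activators were lower.

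With secretin in male WT, 5 of the 52 rose and 1 fell (median 0.15), where 3.55% and 2.67% of all genes did, and 4 of the 5 were among the 15 chaperones and folding enzymes. Without WT library 1 and dnTGFB library 3, 25 were higher and 15 lower (median 0.15), among them 12 and 1 of the chaperones and folding enzymes, where 40.5% of all genes were called; the 6 genes kept their calls. Hyou1, an ER chaperone of the Hsp110 family, rose 2.61-fold (1.39 ± 0.17, adjusted p = 0.00121), from 68.0, 74.2 and 73.1 to 184, 184 and 195 CPM. Sdf2l1, a partner of BiP and ERdj proteins, rose 2.52-fold (1.33 ± 0.13, adjusted p = 4.30e-04), from 25.2, 22.4 and 22.4 to 58.8, 57.5 and 60.1 CPM. Creld2, a secreted ER stress protein, rose 1.93-fold (0.95 ± 0.21, adjusted p = 0.0239), and the ATF4 target Sesn2 fell (-1.10 ± 0.28, adjusted p = 0.0391). Hyou1 and Sdf2l1 thus had no overlap between WT secretin and any other male group. The fourth called chaperone was Pdia6 (0.83 ± 0.21, adjusted p = 0.039), a protein disulphide isomerase, and the fifth gene was Sel1l of the degradation complex (0.59 ± 0.12, adjusted p = 0.0178); both fall outside the rule for naming and were chosen after their values were seen.

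With secretin in male dnTGFB, 15 of the 52 rose and 2 fell (median 0.34), where 10.1% and 12.4% of all genes did. The ones that rose were 5 of 8 degradation genes, 4 of 7 translocation genes, 4 of 15 chaperones and folding enzymes, 1 of 4 sensors and activators and 1 of 2 phosphatase subunits, and both that fell were among the 15 ATF4 and CHOP targets. Without dnTGFB library 3 and WT library 1, 27 were higher and 11 lower (median 0.21), where 46.6% of all genes were called: 8 higher and 3 lower of the chaperones and folding enzymes, 5 and 1 of the degradation genes, 6 and 0 of the translocation genes, and 3 and 6 of the ATF4 and CHOP targets. The 17 genes kept their calls. Ppp1r15b, the constitutive subunit that directs eIF2alpha dephosphorylation, rose 2.32-fold (1.22 ± 0.26, adjusted p = 0.013), from 77.1, 65.5 and 30.5 to 135, 136 and 138 CPM. Creld2 rose 2.25-fold (1.17 ± 0.22, adjusted p = 0.00604) and Eif2ak3 rose 2.05-fold (1.04 ± 0.26, adjusted p = 0.0208), to 43.9, 40.3 and 41.8 CPM. Psat1, an ATF4 target of serine synthesis, fell (-1.86 ± 0.52, adjusted p = 0.0288), from 12.8, 10.5 and 55.8 to 6.96, 6.69 and 6.60 CPM. For Psat1 as for Asns, dnTGFB library 3 held the outlying value, and without it and WT library 1 they stood at -0.78 (adjusted p = 0.0012) and, in dnTGFB against WT, at 1.58 (adjusted p = 7.35e-07).

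In the interaction 8 of the 52 were higher and 2 lower (median 0.13), where 8.1% and 7.51% of all genes were. Without WT library 1 and dnTGFB library 3, 16 were higher and 17 lower (median 0.02), where 48.9% of all genes were called; the 10 genes kept their calls. Atf3, a stress-induced transcription factor downstream of ATF4, differed by 2.14 ± 0.65 (adjusted p = 0.0465): it stood at 1823, 2332 and 2348 CPM in WT, at 1021, 1029 and 1014 CPM in WT secretin, at 1229.6, 1253 and 254 CPM in dnTGFB, and at 1912, 1921 and 1860.5 CPM in dnTGFB secretin. Like Atf4, it was lower with secretin in every WT library and higher with secretin in every dnTGFB library. Ppp1r15b (1.84 ± 0.37, adjusted p = 0.0105) and Eif2ak3 (1.24 ± 0.36, adjusted p = 0.0426) differed in the same direction and Sdf2l1 in the opposite one (-1.34 ± 0.19, adjusted p = 0.00176).

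In female libraries no member and no gene of the whole table was called by edgeR in dnTGFB against WT, WT secretin against WT or dnTGFB secretin against dnTGFB (0% of 19882 genes in each). At an unadjusted p under 0.05 there were 2 members in each comparison, and 3859, 5263 and 3626 genes. DESeq2 called 782, 2654 and 437 genes and 0, 1 and 0 members. The members' medians were 0.33, -0.02 and -0.26, against 0.10, 0.11 and -0.02 over all genes. Groups did not overlap for 6, 1 and 3 members, and for 22.9%, 23.7% and 17.6% of all genes.

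**Figure D3:**
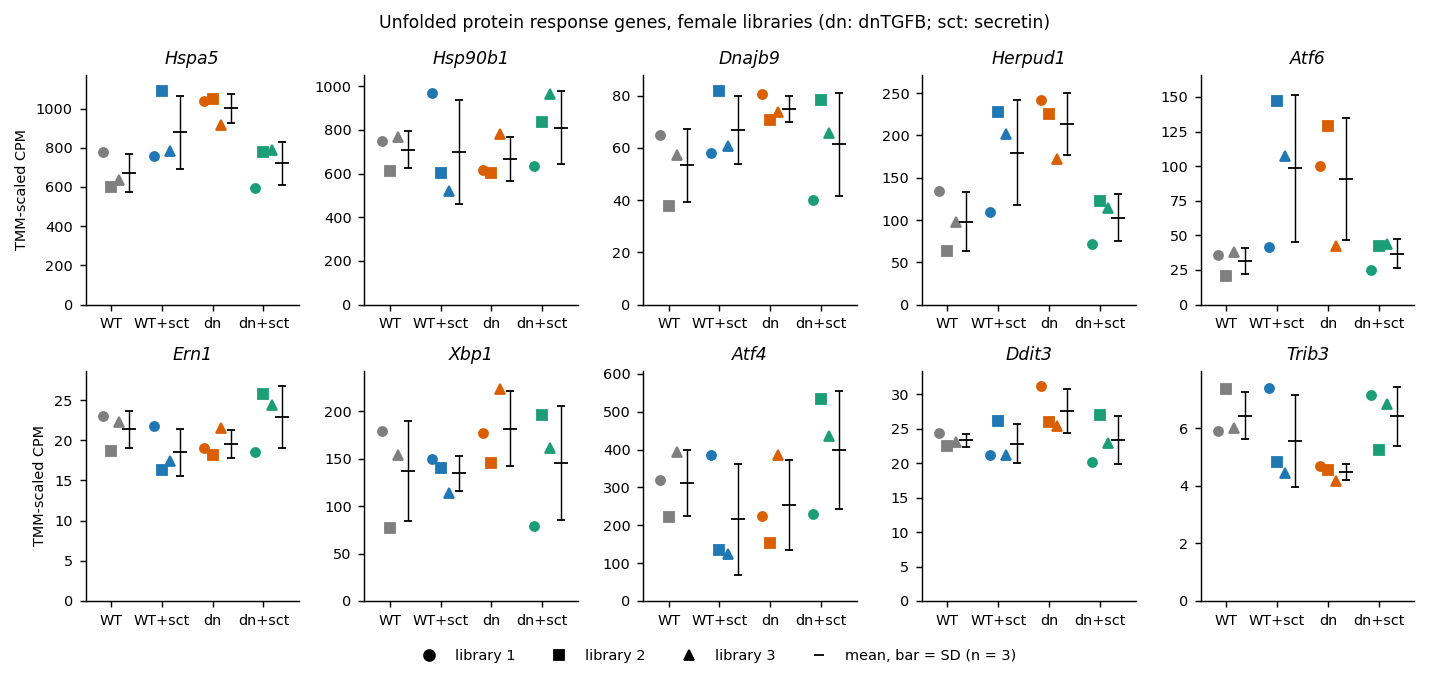
TMM-scaled CPM of the 10 genes in the 12 female libraries, drawn as for males. Atf6 lies at 100.2 to 147 CPM in WT secretin libraries 2 and 3 and dnTGFB libraries 1 and 2 and stays between 20.8 and 43.4 CPM in the other 8.

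The spread between libraries of a group was wide for several members. Atf6 stood at 35.9, 20.8 and 38.2 CPM in female WT, at 41.6, 147 and 107 CPM in WT secretin, at 100.2, 129 and 42.5 CPM in dnTGFB, and at 24.7, 42.4 and 43.4 CPM in dnTGFB secretin. Its 4 high values were those of the libraries rich in heart muscle transcripts. Herpud1 stood at 134, 63.3 and 97.1 CPM in WT, at 109.5, 228 and 201.4 CPM in WT secretin, at 242, 226 and 172 CPM in dnTGFB, and at 71.2, 122.6 and 115 CPM in dnTGFB secretin. The same 4 libraries held its highest values, and dnTGFB library 3, which has few heart transcripts, came next.

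Atf4 went the other way, at 321, 222 and 393 CPM in female WT, at 386, 135 and 125 CPM in WT secretin, at 225, 153 and 385 CPM in dnTGFB, and at 229, 533 and 436 CPM in dnTGFB secretin. Of the 4 heart-rich libraries, 3 were below all others, and dnTGFB library 1 lay just above WT library 2. Hsp90b1 stood at 749, 612 and 769 CPM in WT, at 969.5, 604 and 522 CPM in WT secretin, at 616, 603 and 783 CPM in dnTGFB, and at 633, 835 and 964 CPM in dnTGFB secretin, with low values in the heart-rich libraries, in WT library 2 and in dnTGFB secretin library 1. Hspa5 stood at 780.4, 598 and 638 CPM in WT, at 760.4, 1092 and 782 CPM in WT secretin, at 1039.6, 1049.7 and 914 CPM in dnTGFB, and at 594, 778 and 790.1 CPM in dnTGFB secretin. All dnTGFB libraries of Hspa5 were above all WT libraries and above all dnTGFB secretin libraries, without passing the test (0.58 ± 0.31, adjusted p = 0.309, and -0.47 ± 0.31, adjusted p = 0.399).

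Over the 12 female libraries, Ddit3 lay between 20.2 and 31.2 CPM, Trib3 between 4.16 and 7.38 CPM and Ern1 between 16.3 and 25.7 CPM. Ddit3 thus varied over a narrower range than in males, where it spanned 14.1 to 57.8 CPM, and 20.2 to 57.8 CPM without male dnTGFB library 3. Ern1 spanned 7.05 to 29.8 CPM in males, but its lowest value was that same library, with 12 counts. Without it Ern1 spanned 20.5 to 29.8 CPM in males, so its wider male range rests on that library. Dnajb9 lay between 37.6 and 81.6 CPM and Xbp1 between 77.4 and 224 CPM, and both had their lowest values in WT library 2 and dnTGFB secretin library 1, the nearly identical pair, at 37.6 and 39.8 CPM for Dnajb9 and 77.4 and 79.3 CPM for Xbp1. Markers of stratified squamous epithelium summed to 3909 and 3897 CPM in this pair, where no other female library exceeded 319 CPM. Bile duct markers summed to 581 and 601 CPM in the pair, against 2940 to 5228 CPM in the other libraries that are not heart-rich. The part of this make-up in the levels of Dnajb9, Xbp1 and Hsp90b1 was not tested.

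In the female interaction 2 of 10 members were called, both lower, where 18% of all genes were called, 4.03% higher and 13.9% lower. The secretin effect in dnTGFB minus that in WT was -2.94 ± 0.73 log2 units for Atf6 (adjusted p = 0.0408) and -1.92 ± 0.52 for Herpud1 (adjusted p = 0.0415). The 4 heart-rich libraries are secretin-treated in WT and untreated in dnTGFB, so the contrast sets them against the rest. Without them the fitted values were -0.52 for Atf6 and -0.82 for Herpud1 (adjusted p = 0.95 for both), with WT secretin and dnTGFB left with 1 library each that was assumed to vary like the other groups. Leaving out each library in turn, both genes were still called without WT secretin library 1 or dnTGFB library 3, and had adjusted p from 0.0613 to 0.117 without each of the other 10. Without the 4 libraries that nearly match a library of another group they were -2.76 (adjusted p = 0.0776) and -1.58 (adjusted p = 0.0787). Atf4, at 1.19 ± 0.76 (adjusted p = 0.269) in females, was at -0.18 (adjusted p = 0.975) without the heart-rich libraries. Whether its interaction differed between the sexes was not tested.

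**Figure D4:**
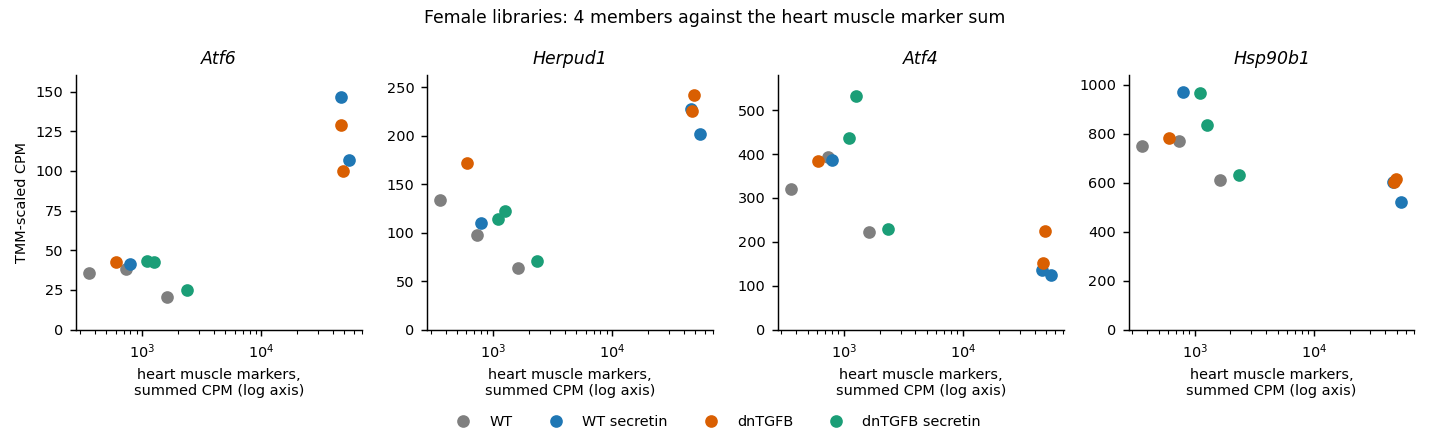
TMM-scaled CPM of Atf6, Herpud1, Atf4 and Hsp90b1 in the 12 female libraries against the summed CPM of 8 heart muscle markers on a log axis, 1 point per library, coloured by group. The 4 libraries at 46435 to 54558 CPM of heart markers have the highest Atf6 and Herpud1 values and low Atf4 and Hsp90b1 values.

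Of the other 52 pathway genes in females, none was called in the 3 comparisons, as was no gene of the whole table. At an unadjusted p under 0.05 there were 3, 9 and 4 of the 52, and 3859, 5263 and 3626 of 19882 genes. In the interaction 1 of the 52 was higher and 1 lower, where 4.03% and 13.9% of all genes were. The lower one was Vldlr, a lipoprotein receptor gene listed here as an ATF4 target (-8.15 ± 1.89, adjusted p = 0.0408), which stood at 285 to 428 CPM in the 4 heart-rich libraries and at 9.50 to 28.2 CPM in the other 8. Without the heart-rich libraries Vldlr was at 0.89 (adjusted p = 0.95). The higher one was Asns (1.41 ± 0.42, adjusted p = 0.0463), which is outside the rule for naming and stood at 1.07 (adjusted p = 0.95) in the fit without the heart-rich libraries.

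Among 10102 genes averaging at least 10 CPM, the protein-coding genes whose log2(CPM + 1) over the 24 libraries was most like that of Hspa5 were Golgb1 (Pearson r = 0.909), Uggt1 (0.908), Rapgef6 (0.896), Txndc11 (0.893) and Zfp292 (0.892). For Ddit3 they were Impdh2 (0.917), Taf7 (0.888), Gpkow (0.882), Chd1 (0.882) and Oser1 (0.879). The 24 points share pools, depth and cell make-up, so these values only describe likeness. Between members, Hspa5 and Hsp90b1 had r = 0.89 over the 12 male and r = -0.169 over the 12 female libraries, and Atf4 and Ddit3 had r = 0.784 and 0.011.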

How the data were processed

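Poly(A) RNA from 24 libraries was measured by RNA-seq, from 500 ng of total RNA per sample per the labels' protocols. The deposited tables hold whole-number counts per gene made by the authors, per the file headers with Ensembl identifier, position and exon length. No source used here names the aligner, the counter or the strand setting. The genes' coordinates were those of the files, on GRCm38: 49056 of 49315 identifiers were in GENCODE M21, 44823 with the same coordinates.

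Groups came from library titles. Counts were fitted per sex over 12 libraries with edgeR 4.0.16 in R 4.3.3 (filterByExpr, TMM scaling, robust quasi-likelihood F test, two-sided, 1 mean per group), and p-values were adjusted by Benjamini-Hochberg over all genes tested. A gene was called at an adjusted p under 0.05. The SE was taken as |log2 fold change| over the root of the F statistic. The test was checked before use on simulated counts, drawn from a common mean profile per sex with a fixed dispersion and planted changes. That simulation held no libraries standing apart, so it does not show how the test behaves with those found here. DESeq2 1.42.0, other scalings, no filter, a replicate block, fits of 6 libraries and left-out libraries were the alternatives; leaving out the 4 female libraries nearly identical to another group was chosen after seeing the data. Marker sums, single marker genes, Xist, Ddx3y and Tgfbr2 are in CPM of library totals without TMM scaling. Other CPM are TMM-scaled. Library distances used counts thinned to 1400000 and left out genes summing to fewer than 10.

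The members and the lists of other pathway genes and markers were chosen with earlier results of these data known. All 10 members are named. Of the other 52 genes, up to 4 per comparison are named, those with the largest absolute log2 fold change among called genes with at least 10 CPM in the highest group. Motifs were searched in RefSeq's promoter table. Atf6 has no entry there.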

Additional observations from a re-analysis of the deposited data

Results flagged for a closer look

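In males, the secretin effect on Atf4 differed between genotypes, by an interaction term of 2.23 (SE 0.47, adjusted p = 0.0121, edgeR): all 3 WT secretin libraries were below all WT libraries, and all 3 dnTGFB secretin libraries were above all dnTGFB libraries. Age cannot be told apart from secretin in this term or in the female ones. The male term also uses the male WT secretin libraries, where Xist stood at 34.0 to 42.4 CPM. In females, the interaction term was -1.92 for Herpud1 (SE 0.52, adjusted p = 0.0415) and -2.94 for Atf6 (SE 0.73, adjusted p = 0.0408). Both female terms set the 4 libraries with 46435 to 54558 CPM of heart muscle markers against the others, and without these the terms were -0.82 and -0.52 (adjusted p = 0.95 for both).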

How the results depend on the processing

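Of 1180 fold changes of members recomputed under alternatives, 1053 were counted as unchanged. These kept their side of the threshold, but include changes of sign where neither value passed the test. Atf4 in the female interaction is such a case, at 1.19 with all libraries and -0.18 without the heart-rich ones. Turns of direction were counted only where either value passed the test, and there were 7. Counts are of members called, then genes called. For male dnTGFB against WT (1, 3195), DESeq2 gave 2 and 4986, library totals 8 and 5223, the replicate block 0 members, fits without WT library 1 and dnTGFB library 3 gave 7 and 9091, the 6 libraries alone 0 and 0 (1 and 2860 at an unadjusted p under 0.05, edgeR), and leaving out each library 0 to 4 and 1244 to 6642. For male WT secretin against WT (0, 1168), DESeq2 gave 3 and 3118, DESeq2 size factors 1 member, library totals 2 members, no filter 775 genes, the replicate block 698 genes, the fit without those libraries 9 and 7767, the 6 libraries alone 6 and 4928, and leaving out each library 0 to 0 and 332 to 1074. For male dnTGFB secretin against dnTGFB (2, 4237), DESeq2 gave 4 members, library totals 9 and 7526, no filter 1 member, the replicate block 1 member (Xbp1, adjusted p = 0.0286), the fit without those libraries 8 and 8929, the 6 libraries alone 0 and 506, and leaving out each library 0 to 8 and 1048 to 7247. For the male interaction (1, 2931), DESeq2 gave 2 and 5397, library totals 4 members, no filter 1858 genes, the fit without those libraries 7 and 9380, and leaving out each library 1 to 6 and 1149 to 7324. The highest counts in these ranges came without dnTGFB library 3, or, in WT secretin against WT, without WT library 1.

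In females, DESeq2 called 782, 2654 and 437 genes in the 3 comparisons where edgeR called 0, and 1 member (Atf6) in WT secretin against WT. Leaving out each library gave 0 to 0 members and 0 to 0 genes in dnTGFB against WT and in dnTGFB secretin against dnTGFB, and 0 to 2 members and 0 to 5441 genes in WT secretin against WT, the highest without WT secretin library 1. For the female interaction (2, 3574), DESeq2 gave 6290 genes. Library totals, the replicate block, the fit without the heart-rich libraries and the fit without nearly identical libraries each gave 0 members and 0 genes with edgeR (4987, 6550, 53 and 9296 genes at an unadjusted p under 0.05), and leaving out each library 0 to 3 and 0 to 8171. Among these, the calls of Atf6 and Herpud1 remained without WT secretin library 1 and without dnTGFB library 3.

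Directions turned in males for Hspa5 in dnTGFB against WT (0.19 without WT library 1 and dnTGFB library 3), Atf6 in the same comparison (-0.28), Hspa5 in dnTGFB secretin against dnTGFB (-0.31, and from -0.31 without dnTGFB library 3 to 0.26 without library 2 when 1 library was left out), Ddit3 there under library totals (0.81), and Hsp90b1 in the interaction (-0.29, and from -0.25 without dnTGFB library 3 to 0.31 without library 2). Library totals moved the median of all genes to -0.44, 0.19, 0.75 and 0.50 in the 4 male fits and split the calls 653 higher to 210 lower (666 to 502 with TMM) in WT secretin against WT and 3231 to 553 (1521 to 1410) in the interaction. Replicate numbers were checked as a pairing by correlating the libraries' deviations from their group means. Same-numbered libraries gave -0.215 to 0.267 in males and -0.891 to 0.906 in females. Differently numbered libraries gave a like range, -0.299 to 0.27 and -0.933 to 0.931. Libraries standing apart weigh on these deviations, so the check cannot decide whether the numbers pair libraries. Under the replicate block Trib3 in dnTGFB against WT (adjusted p = 0.0503) and Atf4 in dnTGFB secretin against dnTGFB (adjusted p = 0.0647) were no longer called. The causes of these changes were not tested. Depth limits dnTGFB library 3 most, where Trib3 had 2 counts.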
